A study of Mus musculus with 17 samples.

Results

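The 10 genes described here were listed for their known link to glucocorticoid signalling: the glucocorticoid receptor gene Nr3c1, the hormone-activating enzyme gene Hsd11b1, and the glucocorticoid targets Fkbp5, Tsc22d3, Zbtb16, Sgk1, Errfi1, Pik3r1, Sult1a1 and Lcn2. They were taken by gene symbol from the deposited count table, which holds 21982 genes. All 10 were in the table, and all 10 were among the 12486 genes that passed the filter on low counts and were tested. Messenger RNA was sequenced from the brown adipose tissue of 17 C57BL/6 mice, with 1 library per mouse. The animals were wild-type (Noc+/+) littermates or mice homozygous for a Nocturnin (Noct) knockout. Each was kept alone with its food removed and spent 4 h at either 22 °C (room temperature) or 6 °C (cold). Wild types numbered 4 at room temperature and 5 in the cold, and there were 4 knockouts in each condition. Of the 9 wild types 2 were labelled male, and of the 8 knockouts 6 were. The labelled ages ran from 11.14 to 23.57 with no unit, while the text of the series speaks of mice 10 to 20 weeks old. The deleted part of Noct, the time of day at collection and the circulating hormone are not given in the sources used here. Whether changes of the 10 genes follow the hormone was not tested.

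Glucocorticoids (corticosterone in mice) are adrenal steroids whose secretion follows a daily rhythm and is raised by stress and by fasting. They bind the glucocorticoid receptor, which waits in the cytoplasm in a complex with heat-shock chaperones, enters the nucleus and binds DNA elements near its target genes. Inside fat cells the enzyme encoded by Hsd11b1 regenerates active hormone from its inactive form. In brown fat, glucocorticoids are known to act on heat production and on the uptake and storage of fuel.

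The targeted gene was low in the knockouts: Noct lay between 91.5 and 457 CPM (read counts scaled to library size by TMM) in the wild types and between 3.37 and 34.2 CPM in the knockouts, and no knockout library reached any wild-type library. Library totals ran from 18410748 to 47598200 counts, of which 43.4 to 57.3% came from mitochondrially encoded genes. The labelled tissue was matched by its markers: all 10 brown adipocyte genes checked were detected. Their summed level was 6166 to 7854 CPM at 22 °C and 8701 to 10477 CPM at 6 °C in wild types. In knockouts it was 6429 to 8574 CPM and 8431 to 10403 CPM. With cold 2 of the 10 passed as higher and 3 as lower in wild types, and 2 and 1 in knockouts. White adipocyte markers summed to 17.7 to 53.6 CPM. In each group 5 or 6 of the 7 were detected, with Hoxc10 at 0 in every group. Lep fell in both genotypes, the only 1 of the 5 tested to pass. Summed levels of the 9 macrophage markers were higher at 6 °C in every library, at 71.4 to 80.8 CPM in wild types at 22 °C against 101 to 159 CPM at 6 °C, and at 51.1 to 60.7 CPM against 114 to 172 CPM in knockouts. Of these 9 genes 2 passed the test in each cold comparison, both higher at 6 °C and Cd163 among them. Of all tested genes 27.6% passed in wild types and 21.6% in knockouts. The other macrophage markers did not pass, none fell, and none was at 0. The summed level of 9 skeletal muscle markers ran from 0.464 to 870 CPM, wide within every group, and none of the 9 passed the test in either cold comparison. The part of these other cell types in the results below was not tested, and in bulk tissue fewer cells of a type and less RNA per cell cannot be told apart.

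Per gene length, Hsd11b1, Nr3c1 and Sult1a1 had the highest levels of the 10 genes at 22 °C, and Lcn2 the lowest. In wild types at 22 °C, Hsd11b1 stood at 19.9 ± 9.93 RPKM (reads scaled to gene length and library total; SD, n = 4), Nr3c1 at 15.9 ± 2.16 RPKM and Sult1a1 at 15.1 ± 5.33 RPKM. Zbtb16 (10.1 ± 6.61 RPKM), Sgk1 (10.1 ± 1.62 RPKM) and Pik3r1 (8.62 ± 1.90 RPKM) followed. In that order, neighbours among these 6 genes overlapped in their ranges over libraries. The ranges of Pik3r1 and Errfi1 (5.61 ± 0.535 RPKM) and those of Errfi1 and Tsc22d3 (3.70 ± 0.788 RPKM) were apart. Tsc22d3 overlapped Fkbp5 (1.69 ± 0.997 RPKM), and Fkbp5 overlapped Lcn2 (0.655 ± 0.727 RPKM). In wild types at 6 °C the order of the means differed, with Lcn2 again last. Zbtb16 came first at 20.7 ± 3.17 RPKM (SD, n = 5), with Hsd11b1 at 19.3 ± 3.75 RPKM and Sgk1 at 18.6 ± 1.33 RPKM within overlapping ranges. Pik3r1 was ninth at 2.05 ± 0.515 RPKM, apart from Fkbp5 above it (4.54 ± 1.01 RPKM) and from Lcn2 below it (0.170 ± 0.111 RPKM).

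**Figure D1:**
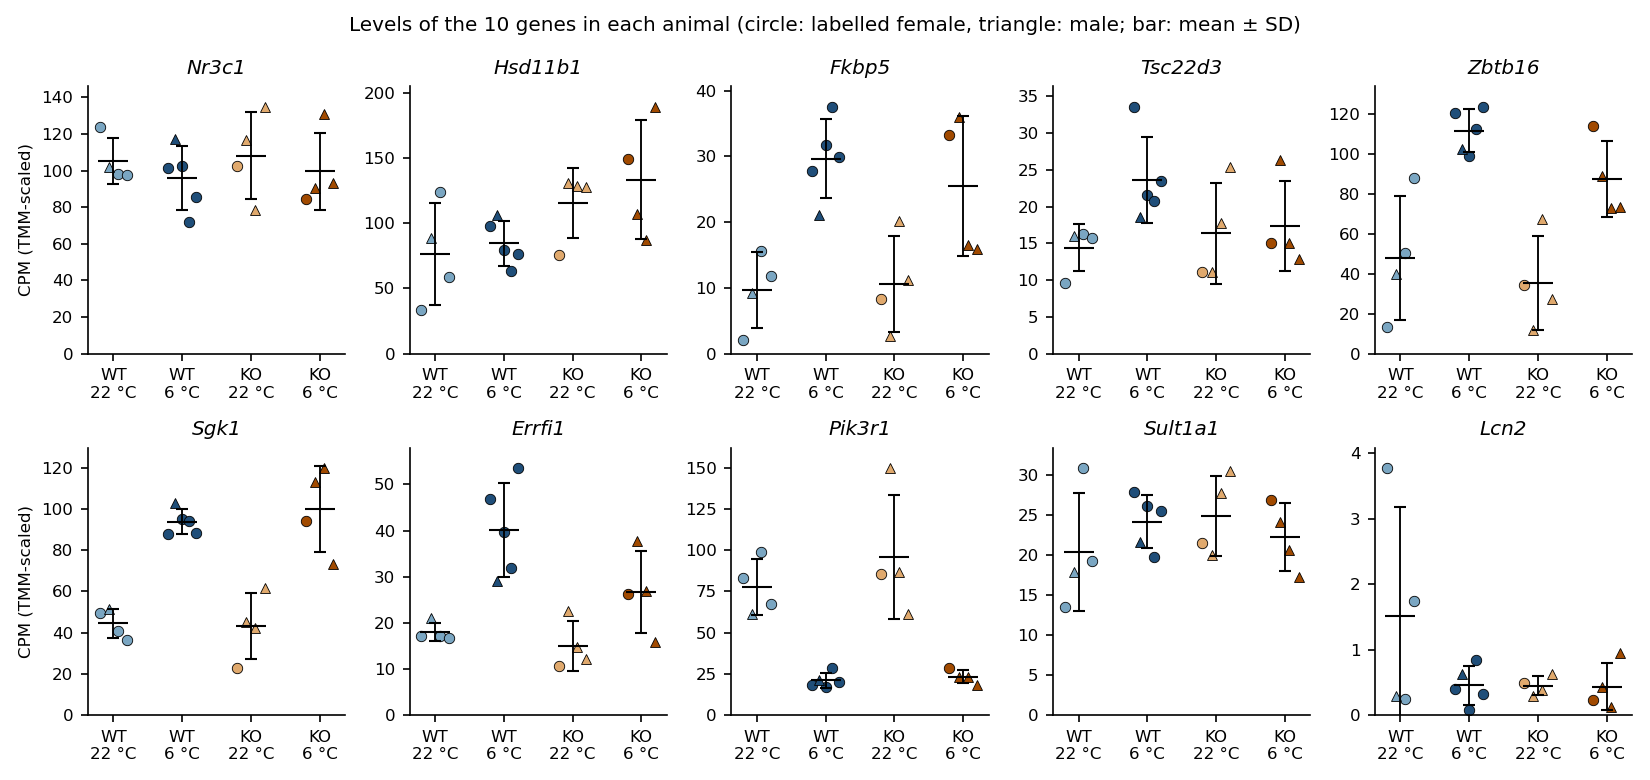
Level of each of the 10 genes in TMM-scaled CPM, 1 panel per gene with its own linear axis from 0. Each point is 1 mouse (circle for labelled female, triangle for male), in 4 groups by genotype and temperature, and bars give the mean ± SD of the group. Pik3r1 is low at 6 °C in both genotypes without overlap, Sgk1 is high at 6 °C in both without overlap, and the highest Lcn2 libraries are wild-type 22 °C replicates 1 and 4.

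In the cold several of the classic targets changed. In wild types Fkbp5, Zbtb16, Errfi1, Sgk1 and Tsc22d3 rose and Pik3r1 fell. In knockouts Zbtb16, Sgk1 and Errfi1 rose and Pik3r1 fell. Thus 6 of 10 genes passed the edgeR quasi-likelihood test (Benjamini-Hochberg adjusted p below 0.05 over all tested genes) in wild types, where 27.6% of all 12486 tested genes passed, 14.3% higher and 13.3% lower. In knockouts 4 of 10 passed, against 21.6% of all tested genes, 11.6% higher and 10.0% lower. The split of all genes moved with the scale: edgeR had 1786 higher and 1664 lower in wild types, against 881 and 3115 by limma on log2(RPKM + 1) and 854 and 2959 on log2(RPKM + 0.1). In knockouts edgeR had 1446 higher and 1251 lower, against 975 and 1387 and then 1014 and 1370 by limma. The median log2 fold change of the 10 genes was 0.49 in wild types and 0.17 in knockouts, beside -0.03 and -0.02 over all tested genes. The libraries at 6 °C did not overlap those at 22 °C for 6 of the 10 genes in wild types (25.8% of all tested genes) and for 3 of 10 in knockouts (20.2%). Scaling by total counts in place of TMM moved the median of all genes in the wild-type cold comparison from -0.02 to -0.20 on the log2 scale and left 7 of the 10 genes higher at 6 °C under both scalings.

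**Figure D2:**
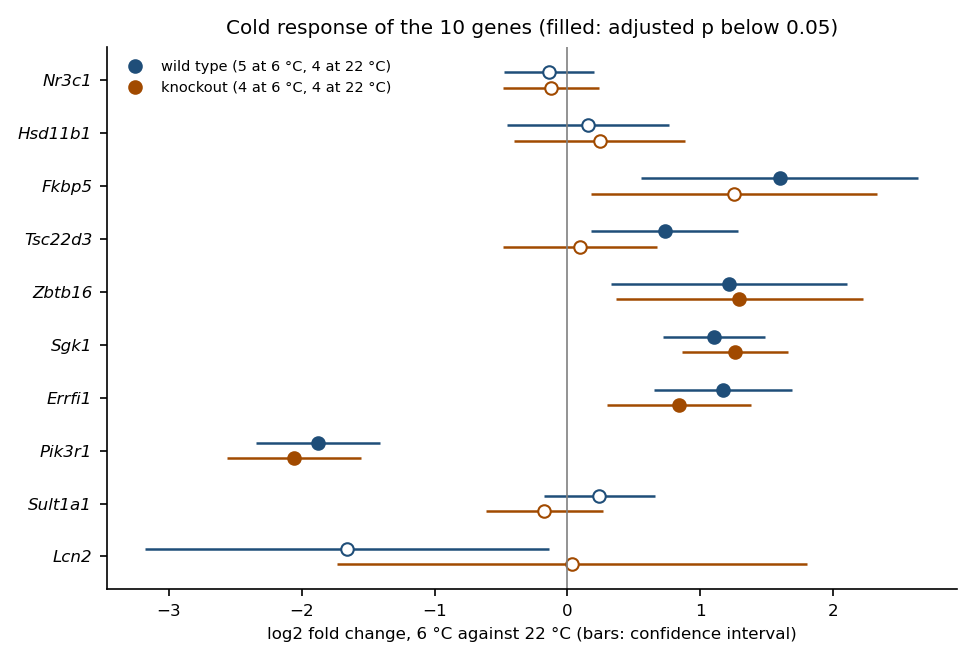
Log2 fold change of each of the 10 genes at 6 °C against 22 °C, from the edgeR fit to all 17 libraries, with its 95% confidence interval. Wild types are blue and knockouts are orange, and filled points have an adjusted p below 0.05. Pik3r1 lies at -1.88 and -2.06, Sgk1 at 1.10 and 1.26, and the interval of Lcn2 is the widest.

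On GRCm38 the GENCODE annotation places the genes that changed, all protein coding, at chr17:28399094-28517527 (Fkbp5, minus strand), chrX:140539528-140600659 (Tsc22d3, minus), chr9:48654297-48836222 (Zbtb16, minus), chr10:21882184-21999903 (Sgk1, plus), chr4:150853919-150868892 (Errfi1, plus) and chr13:101680563-101768217 (Pik3r1, minus). Antisense genes overlap Fkbp5 and Errfi1, and their reads cannot be told apart without a stated strand setting. Promoter windows reaching from 250 bases before to 50 bases after an annotated start are held in the RefSeq table used here (GRCm38.p6) for 8 of the 10 genes, in 17 windows, with no entry for Nr3c1 or Zbtb16. They are described because several of these genes changed with cold, and 4 are shown. These come from Sgk1, Errfi1 and Pik3r1, the genes that changed in both genotypes and have a window, and from Fkbp5. Each window was chosen because it holds a motif named below, so it does not stand for all windows of its gene. Each line gives the 250 bases before the start, 5′ to 3′ on the strand of the gene, with capitals for the motif letters named in the next sentences. They lie at chr10:21993640-21993889 (Sgk1, plus strand), chr4:150854820-150855069 (Errfi1, plus strand), chr17:28486150-28486399 (Fkbp5, minus strand) and chr13:101692631-101692880 (Pik3r1, minus strand).
Sgk1 promoter: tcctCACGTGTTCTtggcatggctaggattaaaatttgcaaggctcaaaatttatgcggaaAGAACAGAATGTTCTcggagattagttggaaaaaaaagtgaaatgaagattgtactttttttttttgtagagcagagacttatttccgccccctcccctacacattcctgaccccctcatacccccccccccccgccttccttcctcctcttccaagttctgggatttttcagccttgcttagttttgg
Errfi1 promoter: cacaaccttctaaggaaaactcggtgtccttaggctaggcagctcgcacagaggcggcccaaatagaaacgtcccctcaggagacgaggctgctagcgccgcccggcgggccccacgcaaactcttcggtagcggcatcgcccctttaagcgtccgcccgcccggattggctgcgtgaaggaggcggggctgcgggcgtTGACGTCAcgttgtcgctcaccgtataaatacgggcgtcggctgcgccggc
Fkbp5 promoter: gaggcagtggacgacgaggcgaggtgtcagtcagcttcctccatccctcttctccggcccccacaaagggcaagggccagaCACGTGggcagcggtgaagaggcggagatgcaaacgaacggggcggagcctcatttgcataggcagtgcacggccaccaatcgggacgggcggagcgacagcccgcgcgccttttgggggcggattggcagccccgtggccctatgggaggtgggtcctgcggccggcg
Pik3r1 promoter: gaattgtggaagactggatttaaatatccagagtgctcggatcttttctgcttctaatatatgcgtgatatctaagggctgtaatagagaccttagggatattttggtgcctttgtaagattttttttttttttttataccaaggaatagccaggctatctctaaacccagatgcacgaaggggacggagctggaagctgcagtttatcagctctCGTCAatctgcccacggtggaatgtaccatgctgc
The Sgk1 window holds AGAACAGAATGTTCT, whose first base lies 189 bases before the start. This is a complete match to the palindrome bound by the glucocorticoid receptor (searched as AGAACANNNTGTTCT). Of the 17 windows searched for the 10 genes 1 holds it, from 1 of 8 genes. Over all RefSeq mouse windows 3 of 32817 hold one (0.00914%), the others being those of Acnat2 and Gm35041. The Sgk1 window was shown because it holds the match, so this share is not a test of it. A heat-shock element core (GAANNTTC, in 7.86% of windows) overlaps the palindrome. The other capitals in the Sgk1 window join an E-box (CACGTG, in 7.15% of windows) to a receptor half-site, TGTTCT. The half-site alone (AGAACA or its reverse TGTTCT) is common, in 19.0% of all windows, and occurs in windows of Sgk1, Tsc22d3 and Sult1a1. The Errfi1 window holds the complete cyclic AMP response element TGACGTCA, found in 1.79% of windows, 51 bases before the start. Its half-site TGACG is in 20.8% of all windows and in 4 of the 17, from Errfi1, Pik3r1, Sgk1 and Tsc22d3. Pik3r1 has it in reverse as CGTCA, 35 bases before the start. Fkbp5 has an E-box 169 bases before the start and neither the receptor palindrome nor a half-site in this window. The AP-1 site TGANTCA, in 7.81% of windows, was in none of the 17. Both strands were searched. Sgk1 has several annotated starts, and counts per gene do not show which start was used, so a match describes the letters of a window and nothing more.

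The receptor and the activating enzyme showed no change that passed the test. Nr3c1, which encodes the glucocorticoid receptor, stood at 124, 102, 98.1 and 97.3 CPM in wild types at 22 °C (replicates 1 to 4) and at 101, 117, 103, 71.8 and 85.4 CPM at 6 °C (replicates 1 to 5). Knockouts had 102, 116, 78.5 and 135 CPM at 22 °C and 84.4, 90.4, 131 and 92.9 CPM at 6 °C. The groups overlapped throughout, and the log2 fold change with cold was -0.14 ± 0.16 (SE; 95% interval -0.48 to 0.20) in wild types and -0.12 ± 0.17 (-0.48 to 0.24) in knockouts. Hsd11b1, which encodes 11β-hydroxysteroid dehydrogenase type 1, varied more between mice, with 33.6, 88.6, 124 and 59.0 CPM in wild types at 22 °C and 97.8, 106, 79.3, 63.1 and 76.1 CPM at 6 °C. In knockouts it stood at 75.7, 131, 128 and 128 CPM at 22 °C and at 149.6, 107, 87.4 and 189.6 CPM at 6 °C. Here too the groups overlapped, with a log2 fold change of 0.16 ± 0.29 in wild types (95% interval -0.45 to 0.77) and 0.24 ± 0.31 in knockouts (-0.40 to 0.89). Lamb3 lies on the other strand at the Hsd11b1 locus. Without a stated strand setting the reads of the pair cannot be separated, and Lamb3 itself averaged 3.28 CPM at 22 °C and 11.3 CPM at 6 °C in wild types.

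Fkbp5 encodes a co-chaperone that binds the receptor complex, lowers its affinity for hormone and is induced by the receptor in turn. It had the largest rise of the 10 genes in wild types. Its levels were 2.03, 9.17, 15.6 and 11.8 CPM in wild types at 22 °C and 27.8, 21.1, 31.7, 37.6 and 29.9 CPM at 6 °C. Knockouts had 8.30, 2.63, 20.1 and 11.2 CPM at 22 °C and 33.3, 36.0, 16.6 and 15.95 CPM at 6 °C. The 5 cold wild types were all above the 4 at 22 °C, while knockout replicate 3 at 22 °C lay above 2 of the 4 cold knockouts. In wild types Fkbp5 rose by 1.60 ± 0.50 on the log2 scale (SE; 3.03-fold, edgeR adjusted p = 0.0232). In knockouts the value was 1.25 ± 0.51 (2.38-fold, adjusted p = 0.0926), which did not pass. The wild-type call was lost in 1 of 30 alternatives, the fit on the majority sex of each genotype (1.70, edgeR adjusted p = 0.0634). The wild-type value was 1.25 without wild-type 22 °C replicate 1, the lowest library (adjusted p = 0.0495). The knockout value passed without that library (1.26, adjusted p = 0.0370) and without knockout 22 °C replicate 3 (1.84, adjusted p = 0.0239).

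Tsc22d3 encodes GILZ, a leucine zipper protein known as a mediator of the anti-inflammatory action of glucocorticoids. It had 9.55, 15.96, 16.3 and 15.8 CPM in wild types at 22 °C and 33.6, 18.6, 21.6, 20.7 and 23.5 CPM at 6 °C. In knockouts it had 11.1, 11.1, 17.7 and 25.4 CPM at 22 °C and 15.0, 26.4, 15.1 and 12.9 CPM at 6 °C. The wild-type groups were apart and the knockout groups overlapped. In wild types Tsc22d3 rose by 0.73 ± 0.26 on the log2 scale (1.66-fold, edgeR adjusted p = 0.0479), close to the threshold, and in knockouts the value was 0.10 ± 0.28 (adjusted p = 0.860). The difference between these cold responses, knockout minus wild type, was -0.63 ± 0.38, with a 95% interval from -1.43 to 0.17 and an adjusted p of 1.00. The wild-type call was lost in 17 of 30 alternative analyses. Leaving out 1 library ended it for each of the wild types at 22 °C (adjusted p = 0.144, 0.0857, 0.0594 and 0.0664 for replicates 1 to 4), for wild-type 6 °C replicates 1, 3, 4 and 5 (0.126, 0.0663, 0.0507 and 0.0713), for knockout 22 °C replicates 1 and 3 (0.0537 and 0.0569) and for knockout 6 °C replicate 1 (0.0572), with log2 values from 0.56 to 0.88 over all 17 such fits.

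Zbtb16 encodes the zinc finger transcription factor PLZF, a strongly hormone-induced gene in many cells. Wild types had 13.5, 39.7, 50.4 and 87.9 CPM at 22 °C and 121, 103, 99.0, 112 and 124 CPM at 6 °C. Knockouts had 34.5, 11.9, 67.5 and 27.2 CPM at 22 °C and 114, 89.1, 73.2 and 73.7 CPM at 6 °C. The temperatures did not overlap in either genotype, and the spread was wider at 22 °C (SD 30.9 CPM in wild types, 23.5 CPM in knockouts) than at 6 °C (10.8 and 19.2 CPM). That difference in spread was not tested. Zbtb16 rose by 1.22 ± 0.42 on the log2 scale in wild types (2.33-fold, edgeR adjusted p = 0.0399) and by 1.29 ± 0.44 in knockouts (2.45-fold, adjusted p = 0.0446). The wild-type call did not survive leaving out replicate 1 (0.90, adjusted p = 0.0850), 2 (0.0857) or 3 (0.0822) of the wild types at 22 °C, or wild-type 6 °C replicate 1 (0.0660), 2 (0.0752), 3 (0.0521) or 5 (0.0638). The knockout call was lost without any 1 of the knockouts except 22 °C replicate 3 (adjusted p from 0.0509, without 6 °C replicate 4, to 0.114, without 22 °C replicate 2, with log2 values from 1.02 to 1.37), and without wild-type 22 °C replicate 3 (0.0515) or wild-type 6 °C replicate 1 (0.0529), 2 (0.0557) or 5 (0.0503). Without knockout 22 °C replicate 3 the value was 1.92 (adjusted p = 0.00575).

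Sgk1 and Errfi1 encode signalling proteins that are induced within hours. Sgk1, a kinase downstream of insulin and growth factor signalling that acts on ion channels and transporters, had 49.3, 51.5, 40.5 and 36.2 CPM in wild types at 22 °C and 87.9, 103, 94.997, 94.2 and 88.3 CPM at 6 °C. In knockouts it had 23.0, 45.2, 42.2 and 61.8 CPM at 22 °C and 94.1, 113, 119.7 and 73.3 CPM at 6 °C. Every cold library lay above every library at 22 °C. Sgk1 rose by 1.10 ± 0.18 on the log2 scale in wild types (2.15-fold, edgeR adjusted p = 0.000375) and by 1.26 ± 0.19 in knockouts (2.40-fold, adjusted p = 0.000247), and both calls held in all 30 alternative analyses. The complete receptor palindrome shown above lies in 1 of its several windows, and its part in this rise was not tested.

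Errfi1 encodes an inhibitor of the epidermal growth factor receptor (MIG6). Its levels were 17.2, 21.0, 17.0 and 16.8 CPM in wild types at 22 °C and 46.9, 29.1, 39.6, 31.8 and 53.5 CPM at 6 °C. Knockouts had 10.5, 22.6, 14.7 and 12.1 CPM at 22 °C and 26.3, 37.7, 26.9 and 15.9 CPM at 6 °C. The wild-type groups were well apart, and in knockouts replicate 4 at 6 °C lay below replicate 2 at 22 °C. Errfi1 rose by 1.17 ± 0.25 on the log2 scale in wild types (2.25-fold, edgeR adjusted p = 0.00234) and by 0.84 ± 0.26 in knockouts (1.79-fold, adjusted p = 0.0264). The wild-type call held in all 30 alternatives. The knockout call was lost in 9 of 30, among them the fits without knockout 22 °C replicate 1 (0.70, adjusted p = 0.0920), 3 (0.84, 0.0549) or 4 (0.75, 0.0705) and without knockout 6 °C replicate 1 (0.83, 0.0531) or 2 (0.64, 0.103).

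Pik3r1, which encodes the regulatory subunits of phosphoinositide 3-kinase on the insulin pathway, moved against the other targets that changed. It stood at 83.2, 61.0, 99.0 and 67.4 CPM in wild types at 22 °C and at 18.4, 21.5, 16.7, 28.6 and 20.2 CPM at 6 °C. In knockouts it stood at 85.2, 149.7, 86.7 and 61.3 CPM at 22 °C and at 28.3, 23.2, 22.9 and 18.4 CPM at 6 °C. The highest cold library and the lowest library at 22 °C were at 28.6 and 61.0 CPM in wild types and at 28.3 and 61.3 CPM in knockouts. Pik3r1 fell by 1.88 on the log2 scale in wild types (SE 0.22; 3.68-fold lower, edgeR adjusted p = 3.14e-05) and fell by 2.06 in knockouts (SE 0.24; 4.16-fold lower, adjusted p = 3.74e-05). Both calls held in all 30 alternatives, with log2 values from -2.04 to -1.66 in wild types and from -2.21 to -1.66 in knockouts.

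Sult1a1 and Lcn2 did not pass the test in either genotype. Sult1a1, a phenol sulfotransferase, had 13.5, 17.9, 30.9 and 19.2 CPM in wild types at 22 °C and 27.9, 21.7, 26.2, 19.8 and 25.5 CPM at 6 °C. Knockouts had 21.5, 20.0, 27.7 and 30.5 CPM at 22 °C and 27.0, 24.2, 20.7 and 17.3 CPM at 6 °C. All groups overlapped, and the log2 fold change was 0.24 ± 0.20 in wild types (95% interval -0.18 to 0.66) and -0.17 ± 0.21 in knockouts (-0.62 to 0.27). Sgf29 overlaps Sult1a1 on the other strand, at a mean of 4.96 to 5.92 CPM in the 4 groups.

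Lcn2, which encodes the secreted iron-siderophore carrier lipocalin 2, had few counts in most libraries. Its raw counts ran from 2 to 149 per library, and the floor of 3 counts corresponds to 0.0577 to 0.170 CPM. Wild types had 3.78, 0.288, 0.242 and 1.74 CPM at 22 °C and 0.397, 0.620, 0.0776, 0.845 and 0.318 CPM at 6 °C. Knockouts had 0.488, 0.289, 0.382 and 0.625 CPM at 22 °C and 0.234, 0.425, 0.129 and 0.952 CPM at 6 °C. Wild-type replicates 1 and 4 at 22 °C were above all other libraries and the rest overlapped. The log2 fold change was -1.66 ± 0.72 in wild types (edgeR adjusted p = 0.0945) and 0.03 ± 0.84 in knockouts (95% interval -1.74 to 1.80). It was -0.66 (adjusted p = 0.525) without wild-type 22 °C replicate 1, and it passed without replicate 2 (-2.17, adjusted p = 0.0316) or replicate 3 (-1.99, 0.0470) of that group. Neutrophils are a known source of Lcn2. The 11 neutrophil markers summed to 5.42 CPM in wild-type 22 °C replicate 1 and to 0.155 to 1.08 CPM in the other 16 libraries. In wild-type 22 °C replicate 4, where Lcn2 was 1.74 CPM, they summed to 0.526 CPM, the lowest of its group. Of the 11 markers 8 were detected in wild types at 22 °C and 6 at 6 °C, and 8 and 9 in knockouts. Ly6g was at 0 in every group. The part of neutrophils in the Lcn2 values was not tested.

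Between genotypes, none of the 10 genes passed the edgeR test at 22 °C or at 6 °C, where 0.0160% (2 genes) and 0.0400% (5 genes) of all tested genes passed. At an unadjusted p below 0.05 the count was 0 of 10 at 22 °C (3.89% of all tested genes) and 1 of 10 at 6 °C (3.15%), and DESeq2 and limma also called 0 of the 10 at either temperature. The gene at 6 °C was Errfi1, with a mean of 26.7 ± 8.93 CPM in knockouts (SD, n = 4) against 40.2 ± 10.2 CPM in wild types (SD, n = 5). Its log2 difference was -0.65 ± 0.27 (95% interval -1.23 to -0.07, unadjusted p = 0.0293, edgeR adjusted p = 0.999), with knockout replicate 2 above 2 of the 5 wild types. No gene of the 10 had groups apart between the genotypes at either temperature, beside 4.22% of all tested genes at 22 °C and 1.04% at 6 °C. The intervals remain wide: for Fkbp5 the knockout minus wild-type difference was 0.25 (95% interval -0.92 to 1.42) at 22 °C and -0.10 (-1.20 to 1.00) at 6 °C, and for Nr3c1 -0.06 (-0.45 to 0.33) and -0.04 (-0.42 to 0.33). Under total-count scaling, 3 of the 10 genes were higher in knockouts at 22 °C in place of 6, with the median of all genes at -0.16, so no direction is read from these differences.

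The cold responses of the 2 genotypes did not differ past the threshold for any of the 10 genes by edgeR, DESeq2 or limma, nor at an unadjusted p below 0.05 by edgeR (2.48% of all tested genes). By adjusted p, 0.00801% of all tested genes passed, which is 1 gene. The difference, knockout response minus wild-type response, was 0.16 (95% interval -0.38 to 0.70) for Sgk1, -0.18 (-0.85 to 0.49) for Pik3r1, 0.08 (-1.18 to 1.34) for Zbtb16, -0.33 (-1.07 to 0.40) for Errfi1 and -0.35 (-1.81 to 1.11) for Fkbp5. That Fkbp5 and Tsc22d3 passed in wild types and not in knockouts is therefore not a shown difference between genotypes. The comparisons share groups, since each cold response and each genotype difference uses 2 of the same 4 groups.

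Labelled sex differed between the genotypes in number and was a term of the fit. None of the 10 genes passed for males against females, where 0.0641% of all tested genes did (8 genes), and DESeq2 and limma also called 0 of the 10. At an unadjusted p below 0.05 there was 1 of 10 (5.53% of all tested genes), Sgk1, with a log2 difference of 0.39 ± 0.16 (unadjusted p = 0.0212, edgeR adjusted p = 0.794).

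Within groups, the mice with little Fkbp5 were also low in Zbtb16. Deviations of log2 CPM from the group means were correlated over the 17 libraries between Fkbp5 and each of the other 9 genes, with permutations of the libraries within groups. For Zbtb16 Pearson's r was 0.90 (permutation p = 0.00305, adjusted over the 9 relations 0.0274) and Spearman's rho 0.81 (0.00305, adjusted 0.0274). Wild-type 22 °C replicate 1 and knockout 22 °C replicate 2, the farthest from the Fkbp5 median, were also the libraries with the least Zbtb16 at 13.5 and 11.9 CPM, and r was 0.72 without them. Within temperatures r was 0.93 over the 8 libraries at 22 °C and 0.69 over the 9 at 6 °C.

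Another 3 genes passed in the same family. Sult1a1 had r = 0.74 and rho = 0.72 (permutation p = 0.0101 and 0.00929, adjusted 0.0426 and 0.0279), and r = 0.63 without the same pair of libraries. Tsc22d3 had r = 0.65 and rho = 0.70 (permutation p = 0.0189 and 0.0128, adjusted 0.0426 and 0.0288), and r = 0.49 without them. The receptor gene Nr3c1 ran the other way, with r = -0.58 and rho = -0.63 (permutation p = 0.0163 and 0.00779, adjusted 0.0426 and 0.0279), and r = -0.61 without them. Within the 22 °C and 6 °C libraries, r was 0.81 and 0.56 for Sult1a1, 0.75 and 0.51 for Tsc22d3 and -0.63 and -0.69 for Nr3c1. With labelled age at each temperature also removed, an alternative chosen after seeing the data, r was -0.38 for Nr3c1 and 0.59 for Sgk1, beside 0.83 for Zbtb16, 0.82 for Tsc22d3 and 0.75 for Sult1a1. Without that step Sgk1 (r = -0.08, rho = -0.10, permutation p = 0.839 and 0.752), Errfi1 (-0.06, 0.01, 0.830 and 0.982), Pik3r1 (-0.25, -0.08, 0.464 and 0.795), Hsd11b1 (0.37, 0.14, 0.303 and 0.669) and Lcn2 (-0.35, -0.20, 0.314 and 0.510) did not pass, with adjusted p from 0.471 upward. Over all 45 pairs of the 10 genes the median r was -0.04. Wild-type 22 °C replicate 1 had the lowest Fkbp5, Tsc22d3, Sult1a1 and Hsd11b1 and the highest Lcn2 of all 17 libraries.

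**Figure D3:**
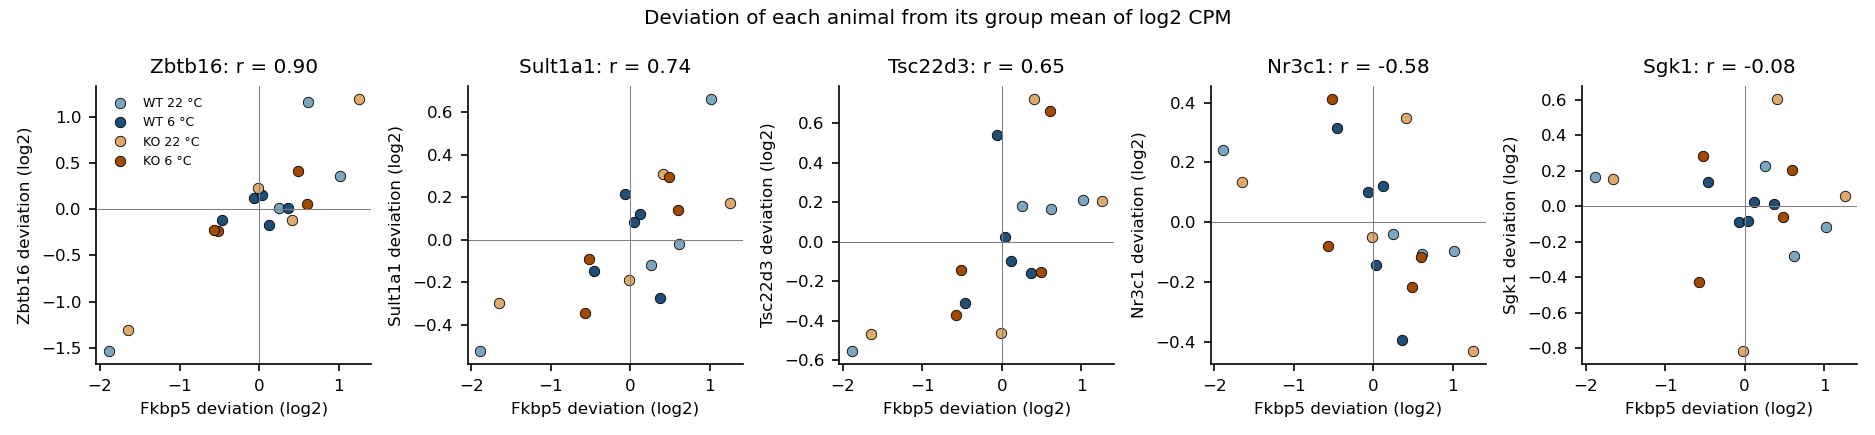
Deviation of Zbtb16, Sult1a1, Tsc22d3, Nr3c1 and Sgk1 from its group mean against that of Fkbp5, both in log2 CPM, 1 point per library, coloured by group. The points of Zbtb16 rise together with Fkbp5 (r = 0.90), those of Sgk1 show r = -0.08 as plotted and 0.59 with labelled age also removed, and the pair of libraries with the lowest Fkbp5 sits far to the left in each panel.

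The genes most like Fkbp5 by this measure were sought among 7747 tested genes with a mean of at least 5 CPM and no predicted or pseudogene name, leaving out the 10 genes themselves. They were Fam107a (r = 0.91), Map3k6 (0.88), Timp4 (0.85), Cdkn1a (0.83) and Klf13 (0.81), over 17 libraries and as a description. Over all other 12485 tested genes r lay between -0.44 and 0.44 from the 5th to the 95th percentile, and Zbtb16 ranked 2 and Tsc22d3 ranked 84 among them. Fam107a, Map3k6 and Cdkn1a were on the list of other glucocorticoid targets described next. That list was chosen with earlier results of these data known, and the overlap was not tested. Timp4 (0.52 ± 0.22, edgeR adjusted p = 0.0932) and Klf13 (0.11 ± 0.15, adjusted p = 0.619) did not pass with cold in wild types.

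The wider pathway was read from lists of other genes. Among 8 genes of steroid reception, supply and removal, 6 were tested and Nr3c2, the mineralocorticoid receptor, which also binds glucocorticoids, fell in both genotypes. Of the 6 tested, 1 passed in wild types and 2 passed in knockouts, beside 27.6% and 21.6% of all tested genes. Nr3c2 averaged 8.08 ± 1.91 CPM at 22 °C and 2.44 ± 0.512 CPM at 6 °C in wild types (SD, n = 4 and 5), and 7.48 ± 1.34 and 2.29 ± 0.761 CPM in knockouts (SD, n = 4 each), with groups apart in both genotypes. Its log2 change was -1.72 ± 0.22 (edgeR adjusted p = 4.91e-05) in wild types and -1.70 ± 0.23 (adjusted p = 0.000124) in knockouts, and it passed in all 30 alternatives. H6pd, which makes the NADPH that Hsd11b1 uses, fell in knockouts only just past the threshold (-0.51 ± 0.18, adjusted p = 0.0450). That call was lost in 20 of 30 alternatives, among them the fits without 13 of the 17 libraries in turn (the highest adjusted p was 0.205, without knockout 22 °C replicate 3). In wild types H6pd did not pass, at 123 ± 15.6 CPM at 22 °C and 95.8 ± 16.6 CPM at 6 °C (SD, n = 4 and 5). The knockout response minus the wild-type response was -0.15 ± 0.24 (SE).

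The second list held chaperones that keep the receptor ready for hormone. Of 13 genes 9 rose in wild types and 8 in knockouts, and none fell, with a median log2 change of 0.71 and 0.52, while 14.3% and 11.6% of all tested genes rose. Hsp90aa1, the inducible HSP90 form, rose by 1.91 ± 0.27 in wild types and 1.52 ± 0.27 in knockouts, and the constitutive HSP70 gene Hspa8 by 1.56 ± 0.20 and 1.51 ± 0.20. Dnajb1, an HSP40 co-chaperone, rose by 1.55 ± 0.23 and 1.16 ± 0.24. Each of these passed in all 30 alternatives. These chaperones are also heat-shock genes. Of 14 coregulators, 5 rose in both genotypes (Ppargc1a, Med1, Ncoa1, Crebbp and Nrip1) and Ncoa2 fell in wild types, with medians of 0.07 and 0.13 beside -0.03 and -0.02 over all tested genes, of which 14.3% rose in wild types and 11.6% in knockouts. Ppargc1a, a coactivator known for its induction by cold in brown fat, had the largest change, 2.86 ± 0.35 in wild types and 3.37 ± 0.35 in knockouts.

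Of 40 other glucocorticoid targets 39 were tested. In wild types 20 rose and 1 (Cdkn1c) fell, and in knockouts 14 rose and 1 (Sesn1) fell, with median log2 changes of 0.67 and 0.62 beside -0.03 and -0.02 over all tested genes. Of all tested genes 14.3% rose and 13.3% fell in wild types, and 11.6% and 10.0% in knockouts. Hif3a, a hypoxia-inducible factor subunit, rose by 2.23 ± 0.56 in wild types and 1.95 ± 0.59 in knockouts, from a low level of 0.0451 and 0.0481 RPKM on average at 22 °C. Its knockout call was lost without knockout 22 °C replicate 2 or 4 or knockout 6 °C replicate 1 or 2 (adjusted p up to 0.147). Fam107a, an actin-binding stress protein, rose by 1.93 ± 0.34 in wild types, and the value in knockouts was 0.99 ± 0.35 (edgeR adjusted p = 0.0520). Cdkn1a, the cell cycle inhibitor p21, rose by 1.76 ± 0.31 and 1.79 ± 0.32, and the metallothionein gene Mt2 by 1.59 ± 0.36 and 1.51 ± 0.37. Irs2, an insulin receptor substrate, rose by 1.55 ± 0.43 in knockouts, a call that ended without knockout 6 °C replicate 2 (adjusted p = 0.0513). Many genes of this list also answer to cyclic AMP, insulin or fasting, and the list does not separate these inputs. By genotype, response difference or labelled sex, none of the members of the 4 lists passed the edgeR, DESeq2 or limma test. At an unadjusted p below 0.05 by edgeR, 6 of 13 chaperones were lower in knockouts at 6 °C, beside 3.15% of all tested genes in either direction. Of these 13, 1 had groups apart there (1.04% of all tested genes), and 0 reached that p for the response difference (2.48%). In the other lists 4 of 39 targets, 0 of 14 coregulators and 0 of 6 genes of steroid reception, supply and removal reached it at 6 °C.

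**Figure D4:**
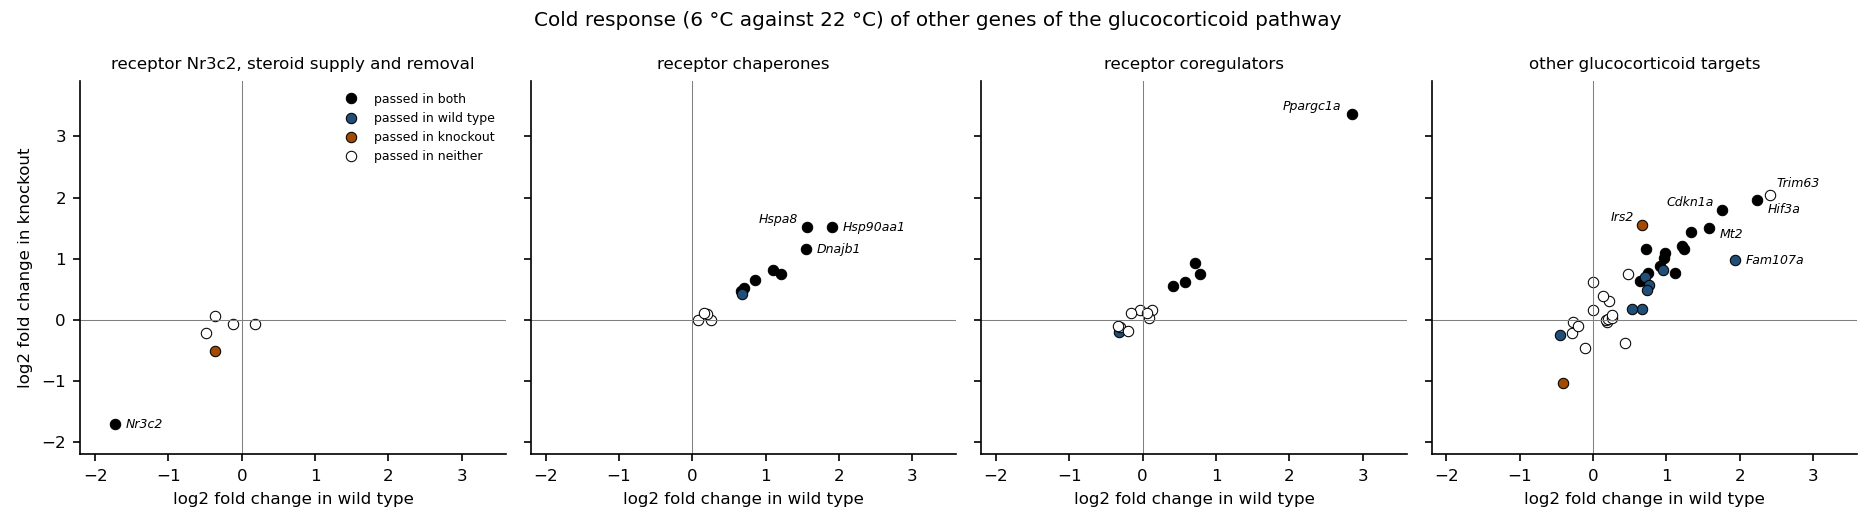
Cold response in knockouts (vertical axis) against wild types (horizontal axis), both as log2 fold change at 6 °C against 22 °C, for the 4 lists of other pathway genes, 1 point per tested gene, coloured by whether it passed in both, in 1 or in neither genotype. Nr3c2 lies low in both genotypes (-1.72 and -1.70), and Ppargc1a is the highest point (2.86 and 3.37).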

How the data were processed

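Per the submitters' processing notes, reads were processed with STAR and HTSeq, with mm10 and GRCm38.p6 named as builds. Versions, annotation and strand setting are not given in the sources used here. The authors deposited raw read counts per gene, and separately RPKM values, which are the same counts scaled to gene length and library total. Reads carry no molecular identifiers, so floors cover counting error only.

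The count test was edgeR 4.0.16 under R 4.3.3 (filterByExpr with a minimum count of 10, TMM scaling, quasi-likelihood test). One model held 4 group means and labelled sex over 17 libraries, with 12 residual degrees of freedom. P-values were adjusted by Benjamini-Hochberg over all tested genes at a threshold of 0.05. Log2 values carry SE and group levels SD over mice. The procedure was tested on simulated data. DESeq2 1.42.0, limma 3.58.1 on log2 RPKM and other fits were alternatives. Intervals are at 95%.

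Members, lists and tests were chosen with earlier results of these data known. Named genes were the 10 members, Noct, up to 4 passing genes per list and cold comparison, and the 5 genes most like Fkbp5. Correlations used 1e+05 permutations. Promoter windows came from RefSeq, and gene overlaps from GENCODE on GRCm38. The result of 1 marker gene is not reported here.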

Additional observations from a re-analysis of the deposited data

Results flagged for a closer look

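Among 44 sets of 4 or 5 libraries (11 genes in 4 groups), 4 held 1 library that stood apart from the others by Dixon's test. Chance gives about 1 in 20 such sets, or 2.2 of 44. Hsd11b1 was lowest in knockout 22 °C replicate 1 at 75.7 CPM, with the next library at 128 CPM. Tsc22d3 was lowest in wild-type 22 °C replicate 1 at 9.55 CPM, with the next at 15.8 CPM. It was highest among cold knockouts in replicate 2 at 26.4 CPM, with the next at 15.1 CPM. Errfi1 was highest among wild types at 22 °C in replicate 2 at 21.0 CPM, with the next at 17.2 CPM.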

How the results depend on the processing

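Sgk1 and Pik3r1 in both genotypes and Errfi1 in wild types kept their cold calls in all 30 alternatives. The wild-type call of Fkbp5 was lost in 1 of 30, and the calls of Tsc22d3, Zbtb16 and knockout Errfi1 were lost in more. Of 300 alternative values of called changes 51 lost the call and 0 changed sign. Of 1424 values of uncalled ones 5 passed and 88 lay on the other side of 0. The cause was not tested for any of these. On the majority sex of each genotype 3 of the 10 genes passed with cold in wild types (Fkbp5 had 1.70, adjusted p = 0.0634) and 2 in knockouts, with 1647 of all genes in knockouts. On the compared groups alone 2 of the 10 and 1589 of all genes passed in knockouts. DESeq2 called Lcn2 in wild types (-1.71, adjusted p = 0.0471). The count of all genes by genotype at 22 °C (2) was 4 with no sex term, 0 on the compared groups, 10 by DESeq2 and 4 by limma with either pseudocount. At 6 °C (5) it was 3 with sex and age, 3 on the compared groups, 12 by DESeq2 and 3 by limma on log2(RPKM + 1). For sex (8) it was 14 with age and 43 by DESeq2. Leaving out each library gave 4 to 6 of the 10 genes with cold in wild types and 2 to 5 in knockouts (2 without knockout 22 °C replicate 1 or 4 or knockout 6 °C replicate 1 or 2), and 0 elsewhere. Over all genes it gave 2605 to 3872, 1961 to 2834, 1 to 3 (genotype, 22 °C), 3 to 5 (genotype, 6 °C), 1 (response difference) and 4 to 14 (sex). The majority-sex fit was not possible for genotype or sex.

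The labels do not say that replicate numbers mark pairs, and the values below do not settle it. Over 24 pairs of libraries with the same number the median correlation was 0.035 (11 over 0.1). Over 84 other pairs it was -0.038 (27 over 0.1), and 3 of 16 libraries correlated best with their own number. With the replicate number as a block, 4 of the 10 genes passed with cold in wild types with or without the sex term. The adjusted p of Tsc22d3 was 0.113 and 0.0962 and that of Zbtb16 was 0.0716 and 0.0670. In knockouts 3 passed with the block and sex and 4 with the block alone. The block left 0 and 1 genes by genotype at 22 °C and 1 by sex. Wild-type 6 °C replicate 5 is alone in its block and adds nothing to those contrasts.

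The within-group r with Fkbp5 moved for Nr3c1 to -0.79 on log2(RPKM + 0.1) and to -0.38 with labelled age also removed (an alternative chosen after seeing the data). For Zbtb16 it was 0.81 by Spearman, 0.72 without the 2 farthest libraries and 0.83 with age removed. For Sgk1 it was 0.59 with age removed. For Errfi1 and Pik3r1 it was 0.32 and 0.26 without the 2 farthest. Leaving out each library gave -0.71 to -0.46 for Nr3c1, 0.82 to 0.93 for Zbtb16, 0.62 to 0.81 for Sult1a1, 0.55 to 0.71 for Tsc22d3, -0.069 to 0.55 for Hsd11b1, -0.21 to 0.34 for Errfi1, -0.42 to 0.18 for Pik3r1, -0.19 to 0.03 for Sgk1 and -0.52 to 0.037 for Lcn2. Lcn2 had 2 to 149 counts per library, against a floor of 3 counts.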

Other observations

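The labelled age was looked at after the values had been seen. At 22 °C Zbtb16 stood at 50.4, 87.9, 34.5 and 67.5 CPM in the 4 mice labelled 11.14, at 39.7 CPM in the mouse labelled 17.00, at 11.9 CPM in the mouse labelled 20.43 and at 13.5 and 27.2 CPM in the pair labelled 23.57. Fkbp5, in the same order of mice, had 15.6, 11.8, 8.30 and 20.1 CPM, then 9.17 CPM, 2.63 CPM, and 2.03 and 11.2 CPM. In an edgeR fit with groups, sex and a slope on age at each temperature, the slope at 22 °C was -0.14 ± 0.03 on the log2 scale per unit of age for Zbtb16 (unadjusted p = 0.000387, adjusted 0.394) and -0.12 ± 0.05 for Fkbp5 (0.0189, adjusted 0.639). For Sgk1 it was 0.04 ± 0.02 (0.0102, adjusted 0.609). At 6 °C the slopes of Zbtb16 and Fkbp5 were -0.01 ± 0.04 and -0.02 ± 0.05. The slope at 6 °C minus that at 22 °C was 0.13 ± 0.05 for Zbtb16 (unadjusted p = 0.0150, edgeR adjusted 0.707). For Fkbp5 it was 0.10 ± 0.07 (0.153, adjusted 0.729). No gene of 12486 passed for age at either temperature or for this difference by edgeR. At an unadjusted p below 0.05 there were 936 at 22 °C, 889 at 6 °C and 823 for the difference. DESeq2 and limma were not run with this slope.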
